A study of Mus musculus with 10 samples.

Results

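The 10 glucose transporter genes described here were chosen by name among the 55359 genes of the table. They comprise 9 members of the facilitative GLUT family, Slc2a1, Slc2a2, Slc2a3, Slc2a4, Slc2a6, Slc2a8, Slc2a10, Slc2a12 and Slc2a13, and the sodium-coupled transporter Slc5a1. All 10 were found, had reads in both groups and passed the filter for the test, which required a mean over all tumors of 1 normalized count or more. RNA was sequenced from 10 orthotopic pancreatic tumors of C57BL/6 mice, grown from the mouse pancreatic cancer line KPC K8484, which was derived with a pancreas-specific Cre (Pdx1-Cre). The sample titles call these tumors PDX (patient-derived xenograft), whereas the labels' source and the study describe KPC tumors. In the study's orthotopic experiments 40000 luciferase-expressing cells were injected into the pancreas of immunocompetent mice at 10 weeks of age. The comparison was between 5 tumors of normoglycemic mice on regular water (CTRL) and 5 tumors of mice made hyperglycemic with 30% dextrose water (D30), given for 14 days. K8484 is 1 cell line, so the tumors share their cancer cells and differ in their host. A tumor is named below by its column in the table, N1, N2, N4, N5 and N6 for CTRL and T1, T2, T4, T5 and T7 for D30. The columns were put into groups by their letter, since their numbers are not the replicate numbers of the labels.

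Glucose crosses the cell membrane along its gradient through GLUT proteins or against it together with sodium through SGLT proteins, and the first enzyme it then meets, a hexokinase, traps it in the cell as a phosphate. GLUT1 (Slc2a1) and GLUT3 (Slc2a3) have a high affinity for glucose and serve basal uptake, and GLUT1 is abundant in many carcinomas, where hypoxia raises its transcription. GLUT2 (Slc2a2) has a low affinity and is known from hepatocytes, islet beta cells and the absorptive epithelia of gut and kidney, while GLUT4 (Slc2a4) is the transporter that insulin moves to the surface of muscle and fat cells. In a whole tumor, fewer cells of a type and less RNA per cell cannot be told apart.

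Recovered reads ranged per tumor from 29915331 to 42122304 (CTRL) and from 29192261 to 37126175 (D30). A pair of D30 tumors stood apart. T5 had reads in 20482 genes, where the other 9 tumors had them in at least 23446, and its summed erythroid markers reached 188041 normalized counts against at most 12422 elsewhere. T4 was the tumor with reads of the Y-linked genes Ddx3y, Eif2s3y, Kdm5d and Uty (841 reads, and 0 in the other 9, which allows up to 3 reads each). The study's methods state that male and female mice were used in equal numbers. Whether the Y-linked reads relate to the other values of T4 was not tested. Of the epithelial markers, Krt8, Krt18 and Krt19 each had 44920 or more normalized counts in all 10 tumors, whereas Epcam had 15.9 to 191 in CTRL and 0 to 62.5 in D30 tumors. For several members, fits without T4 or T5 are given below.

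One member passed the test. Slc2a2 fell in D30 tumors, and no member rose past the threshold of an adjusted p under 0.05 (limma with Benjamini-Hochberg adjustment over 24560 genes). Of all genes tested, 2.76% were called, 1.4% higher and 1.36% lower in D30. Fold changes are D30 minus CTRL on the log2(normalized count + 1) scale, where estimates of low genes depend on the added 1 and on values of 0. Fits to recovered reads gave a smaller fall for Slc2a12 (-1.09 with edgeR, -1.11 with DESeq2). For Slc5a1 the fall was larger with DESeq2 (-1.74 against -1.04 with limma). Slc2a1 and Slc2a3 had higher estimates, 1.56 and 1.31, and Slc2a12 and Slc2a13 lower ones, -1.52 and -1.03. The estimate was above 0 for 3 members and below 0 for 7, with a median of -0.32 against -0.06 over all genes tested. An unadjusted p under 0.05 was seen for 4 of the 10 members and for 17.3% of all genes. Slc2a1 was higher in each D30 tumor than in each CTRL tumor, as were 2.87% of all genes, and Slc2a2 and Slc2a13 were lower in each D30 tumor, as were 3.32%.

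**Figure D1:**
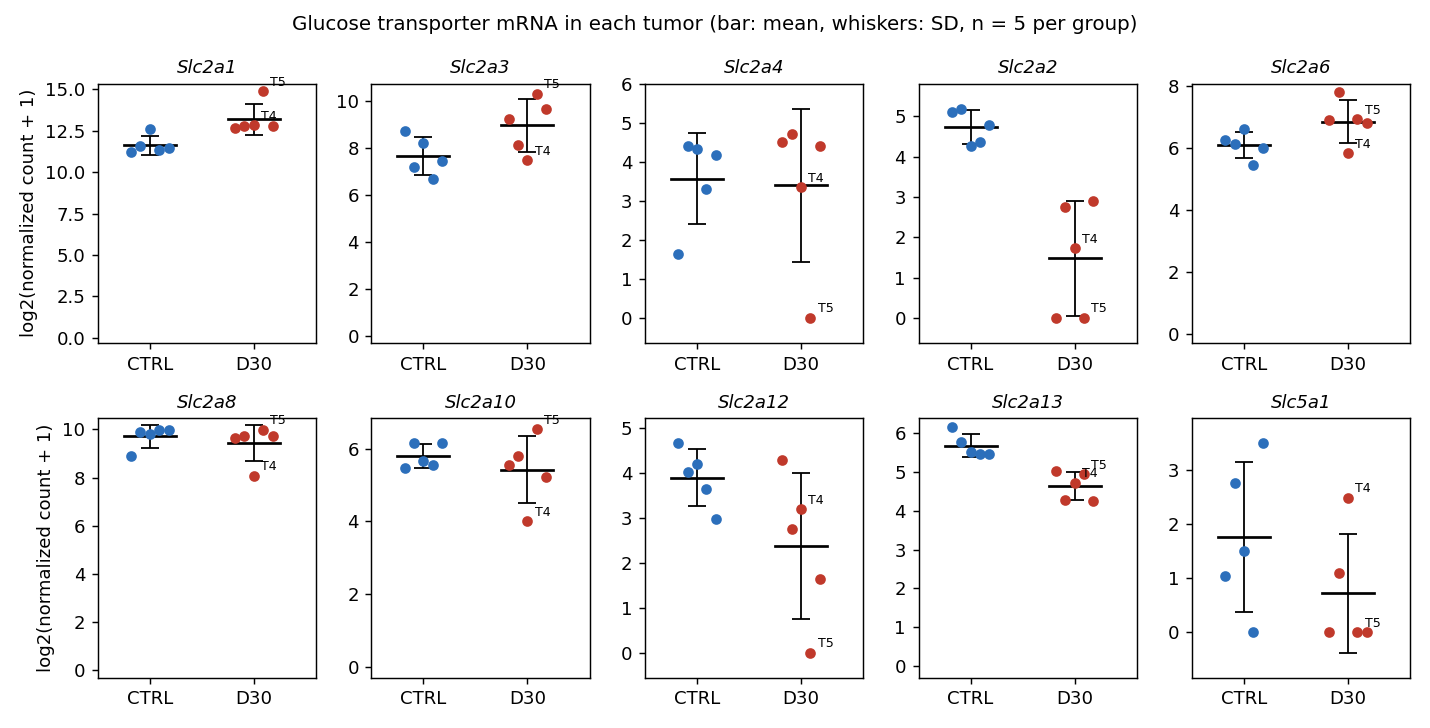
Level of each transporter in each tumor. Each panel shows 1 gene, with log2(normalized count + 1) on the vertical axis and CTRL (blue) and D30 (red) on the horizontal axis. Points are tumors, horizontal bars are means and whiskers are SDs (n = 5 per group), and T4 and T5 are labelled. The groups do not overlap for Slc2a1, Slc2a2 and Slc2a13.

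**Figure D2:**
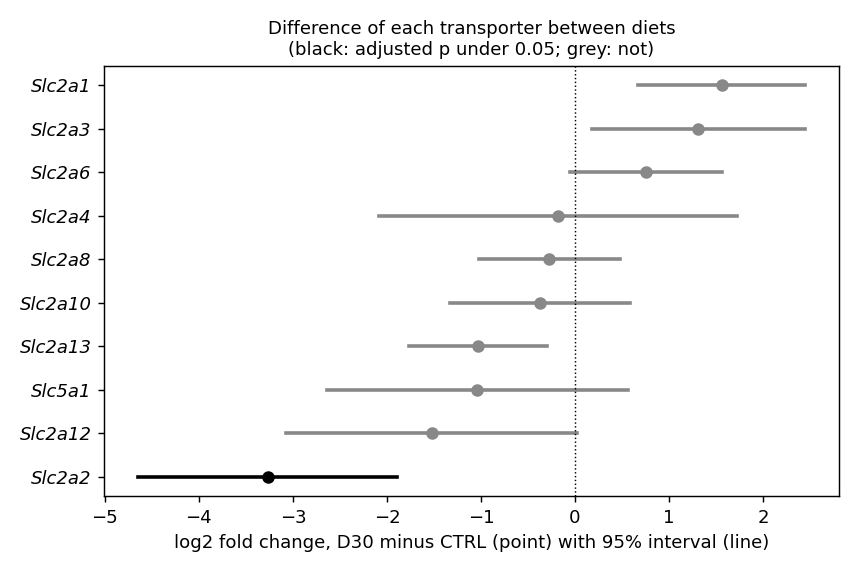
Fold change of each transporter. Points are log2 fold changes (D30 minus CTRL, limma) and lines their 95% intervals, in black where the adjusted p was under 0.05 and in grey elsewhere. The interval of Slc2a2, from -4.65 to -1.89, is the one drawn in black.

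Levels were compared between genes per kilobase of exon, as normalized counts divided by the annotated exon length. Slc2a1 was the highest of the members in each of the 10 tumors. Its mean was 963 ± 458 normalized counts per kilobase (SD, n = 5) in CTRL and 3292 ± 2945 in D30 tumors. Slc2a8 followed with 270 ± 70.0 in CTRL and 236 ± 88.8 in D30, and Slc2a3 came next with 31.4 ± 18.1 and 86.5 ± 60.3. In CTRL tumors the ranges of Slc2a1, Slc2a8 and Slc2a3 did not overlap. Below them Slc2a3, Slc2a6 (21.7) and Slc2a10 (15.7) overlapped with their neighbour in the order, and Slc2a10 did not overlap with Slc2a13. Slc2a13 (6.11), Slc2a2 (4.63), Slc2a4 (3.88), Slc2a12 (3.54) and Slc5a1 (0.92) likewise overlapped from one to the next, so these neighbours were not told apart by their ranges, although Slc2a13 lay above Slc2a2 in each of the 5 CTRL tumors. In D30 tumors the ranges of Slc2a1 and Slc2a8 did not overlap, while those of all later neighbours did. Within each of the 5 D30 tumors, however, Slc2a8 lay above Slc2a3, Slc2a6 above Slc2a10 and Slc2a10 above Slc2a4. Slc2a2, the seventh member in CTRL, was the ninth in D30, below Slc2a12 and above Slc5a1.

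The transporters added up to 925 to 2154 normalized counts per kilobase in CTRL and 2218 to 9117 in D30 tumors. Slc2a1 made up 66.4% to 82.2% of this sum in CTRL tumors, with a median of 69.4%, and 82.1% to 93.9% in D30 tumors, with a median of 83.5%. The CTRL tumor N4, at 82.2%, lay just above the D30 tumors T1 and T7, both at 82.1%. The share of Slc2a8 was 12.996% to 28.6% in CTRL and 3.49% to 11.3% in D30 tumors, without overlap. This share has Slc2a1 in its denominator, and the level of Slc2a8 itself overlapped between the groups (log2 fold change -0.27, limma adjusted p = 0.742). All 52083 named genes were also ranked by normalized counts per kilobase. Slc2a1 stood between positions 882 and 2696 in CTRL and between 200 and 1121 in D30 tumors.

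**Figure D3:**
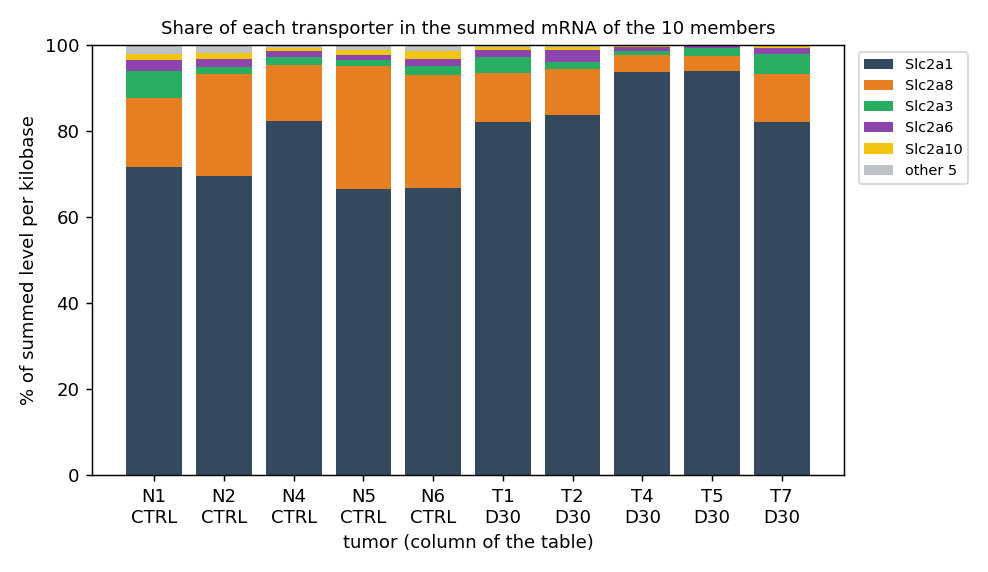
Share of each transporter in the summed level. Each bar is 1 tumor, CTRL on the left and D30 on the right, and its segments give the percent of the summed normalized counts per kilobase of the 10 members. Slc2a1 takes 66.4% to 82.2% in CTRL and 82.1% to 93.9% in D30 tumors, and Slc2a8 most of the remainder.

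Slc2a1 encodes GLUT1, a transporter of basal glucose uptake. The gene lies on chromosome 4 from 119108711 to 119137983 on the plus strand (GRCm38, GENCODE M21). CTRL tumors had 2324, 3045, 6206, 2532 and 2772 normalized counts in N1, N2, N4, N5 and N6. D30 tumors had 6383, 7054, 7325, 30003 and 6947 in T1, T2, T4, T5 and T7. The groups did not overlap, although N4 lay apart from the other CTRL tumors and close to the lowest D30 tumor, and T5 lay far above all others. The mean was 3376 ± 1605 in CTRL and 11542 ± 10325 in D30 tumors (SD, n = 5), and the median was 2772 and 7054. The log2 fold change was 1.56 (95% interval 0.67 to 2.45, standard error 0.41), and the adjusted p of 0.0635 missed the threshold (limma).

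The side of the threshold on which Slc2a1 fell depended on single tumors. It passed without N4 (log2 fold change 1.80, limma adjusted p = 0.0466, with 1.92% of all genes called), without T4 (1.65, 0.0351, with 6.43% called) and without T5 (1.14, 0.0392, with 3.54% called). With T4 and T5 both left out, the log2 fold change was 1.11 (adjusted p = 0.0169, with 9.97% of all genes called). The adjusted p was 0.0592 with edgeR on the recovered reads, which called 4.13% of the genes it tested. DESeq2, which called 8.17%, gave Slc2a1 no p value under its rule for count outliers, and gave a log2 fold change of 1.77 with an adjusted p of 0.00415 once that rule was switched off (8.24% called). All alternatives had a positive log2 fold change for Slc2a1. The summed erythroid markers of T5 were noted above, and their part in its Slc2a1 value was not tested.

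**Figure D4:**
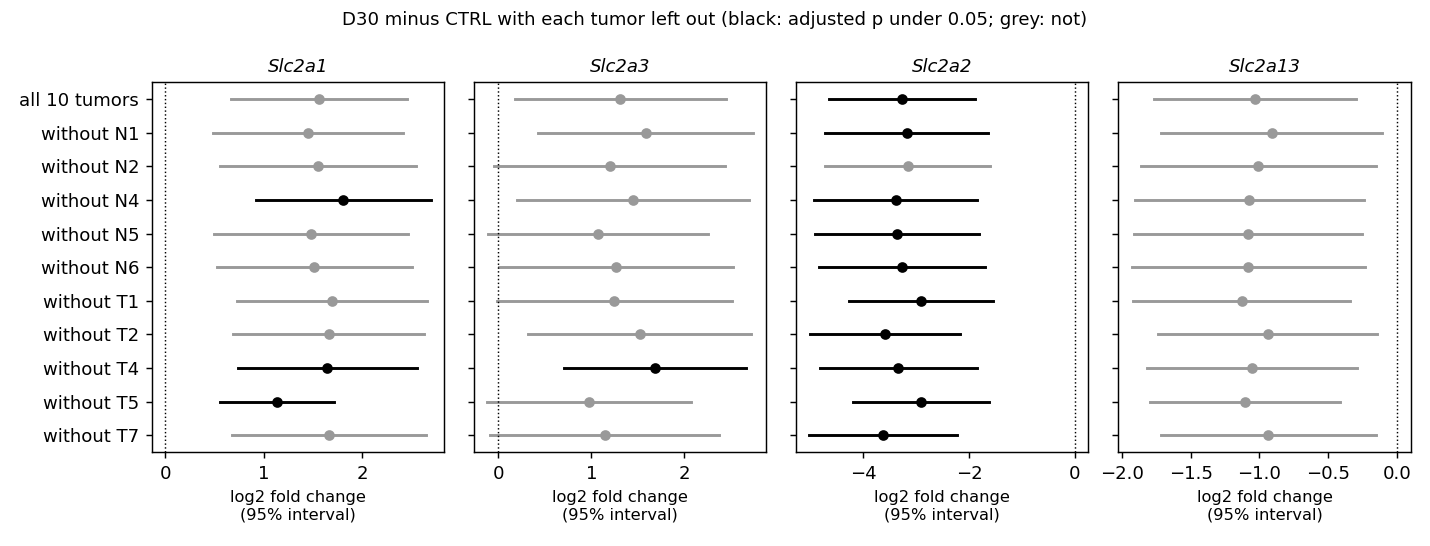
Fold changes with each tumor left out. Each panel shows 1 gene, with the log2 fold change (D30 minus CTRL, limma) as a point and its 95% interval as a line on the horizontal axis, and the tumor left out on the vertical axis. Black marks an adjusted p under 0.05. Slc2a2 is grey only without N2, and Slc2a1 is black without N4, T4 or T5.

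The genes most like Slc2a1 were sought over the 12214 genes whose mean was 100 normalized counts or more, by Pearson's r of the deviations from the group means across the 10 tumors. The nearest was Ero1l, an oxidase of disulfide bond formation in the endoplasmic reticulum (r = 0.991). Egln1, a prolyl hydroxylase that marks hypoxia-inducible factor for degradation, had r = 0.981, and Sqstm1, the autophagy receptor p62, had r = 0.975. Each of them was highest in T5 and, among CTRL tumors, in N4, so that r leans on these tumors. Ero1l had 1906 to 5832 normalized counts in CTRL and 6816 to 35011 in D30 tumors and rose by 1.91 on the log2 scale (limma adjusted p = 0.0350). Egln1 (0.80, adjusted p = 0.314) and Sqstm1 (0.52, adjusted p = 0.253) did not pass. These r values are descriptions across tumors that share their libraries with Slc2a1.

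Slc2a3, on chromosome 6 from 122727809 to 122801640 on the minus strand, encodes GLUT3, the transporter of neurons and of many leukocytes. CTRL tumors had 424, 145, 294, 102 and 174 normalized counts in N1, N2, N4, N5 and N6, and D30 tumors 604, 282, 178, 1269 and 801 in T1, T2, T4, T5 and T7. The groups overlapped, with T4 and T2 within the CTRL range. The log2 fold change was 1.31 (95% interval 0.18 to 2.44, limma adjusted p = 0.215). It passed without T4 (1.68, adjusted p = 0.0426) and was at 0.98 without T5. The summed neutrophil markers moved in the same direction, at 726 to 3688 normalized counts in CTRL and 874 to 17096 in D30 tumors. All 10 of these markers had higher estimates and none passed the test, and T5 was highest and T1, at 874, lowest among D30 tumors. N1 and T5 were highest in their group for both, whereas T2 had 7798 neutrophil marker counts with 282 of Slc2a3, and T7 had 1815 with 801. The part of these cells in the Slc2a3 counts was not tested.

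Slc2a4 encodes GLUT4 and lies on chromosome 11 from 69942539 to 69948188 on the minus strand. It was low in all tumors, with 2.10 to 20.2 normalized counts (2 to 28 reads) in CTRL and 0 to 25.2 (0 to 22 reads) in D30 tumors. The 0 belonged to T5, where it allows up to 3.43 normalized counts. The log2 fold change of -0.18 had an interval from -2.08 to 1.73 (limma adjusted p = 0.945), so that neither a fall nor a rise of that size was told apart from no difference. Markers of fat and muscle, the tissues best known for this transporter, varied in level. The adipocyte sum was 2754 to 7597 normalized counts in CTRL and 2547 to 3486 in D30 tumors. Cidec alone had 1542 to 2289 in CTRL and 1807 to 2302 in D30 tumors, most of that sum outside N4. The skeletal muscle sum was 1101 to 1569 in CTRL and 1173 to 2249 in D30 tumors. Adipoq had at most 7.46 normalized counts outside N4, which had 271, and Slc2a4 was not highest in N4. Of the skeletal muscle markers, Myh1 and Myh4 had no read in any tumor.

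Slc2a2 encodes GLUT2 and lies on chromosome 3 from 28697903 to 28731359 on the plus strand. CTRL tumors had 33.7, 35.4, 18.3, 19.5 and 26.5 normalized counts in N1, N2, N4, N5 and N6, from 20 to 49 reads each. D30 tumors had 0, 5.73, 2.31, 0 and 6.39 in T1, T2, T4, T5 and T7, from 0 to 6 reads each. The lowest CTRL tumor, N4, stood well above the highest D30 tumor, T7, and the 0 values allow up to 3.08 normalized counts in T1 and 3.43 in T5. Over each group 154 reads in CTRL stood against 13 in D30 tumors. The mean was 26.7 ± 7.87 in CTRL and 2.89 ± 3.06 in D30 tumors (SD, n = 5), a ratio of 0.108. Slc2a2 fell by 3.27 on the log2 scale (95% interval -4.65 to -1.89, standard error 0.64, limma adjusted p = 0.0162). It also passed with edgeR (adjusted p = 0.0306) and DESeq2 (8.6e-05), and in each fit with 1 tumor left out except that without N2 (-3.16, adjusted p = 0.0610, with 1.14% of all genes called). Without T4 and T5 the log2 fold change was -2.86 (adjusted p = 0.0110).

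Markers of islet cells and hepatocytes had mostly lower estimates in D30 tumors, and those of the intestine did not. Of 13 islet markers, 11 were tested, all 11 had lower estimates in D30, and Ins1, Gcg, Ppy and Iapp passed the test. Their sum was 44.3 to 1542 normalized counts in CTRL and 20.6 to 99.7 in D30 tumors. Ins1, which encodes insulin, had 0.89 to 542 normalized counts in CTRL tumors, 1.16 in T4 and 0 in the other D30 tumors. The sums overlapped where Slc2a2 did not. N5, with 0.89 normalized counts of Ins1 and the lowest islet sum of the CTRL tumors (44.3), had 19.5 of Slc2a2, while T2 had more islet marker counts (99.7) and 5.73 of Slc2a2. However, the sum of T2 lay in Chga (83.6) and Mafa (16.0), with 0 of Ins1, Ins2, Gcg and Iapp. N5 had 4.43 of Chga, 26.6 of Mafa, 2.66 of Ins2, 1.77 of Gcg and 1.77 of Iapp. Of 9 hepatocyte markers, 8 were tested, 7 had lower estimates and 1 a higher one, and Alb and Ttr fell. Alb, the major plasma protein of the liver, had 13.7 to 59.3 normalized counts in CTRL and 0 to 1.15 in D30 tumors. The hepatocyte sum, which Ttr dominated, was 1517 to 3577 in CTRL and 527 to 1256 in D30 tumors, without overlap. Of 12 intestinal markers, 10 were tested, and 5 had higher and 5 lower estimates, with a median log2 fold change of 0.11. Their sum was 11544 to 18547 in CTRL and 8840 to 33049 in D30 tumors. Of 12 acinar markers 11 had lower estimates and none passed, with sums between 318 and 65341 in CTRL and 201 to 6465 in D30 tumors. Whether Slc2a2 reads came from tumor cells, from remaining pancreas or from another source was not tested.

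**Figure D5:**
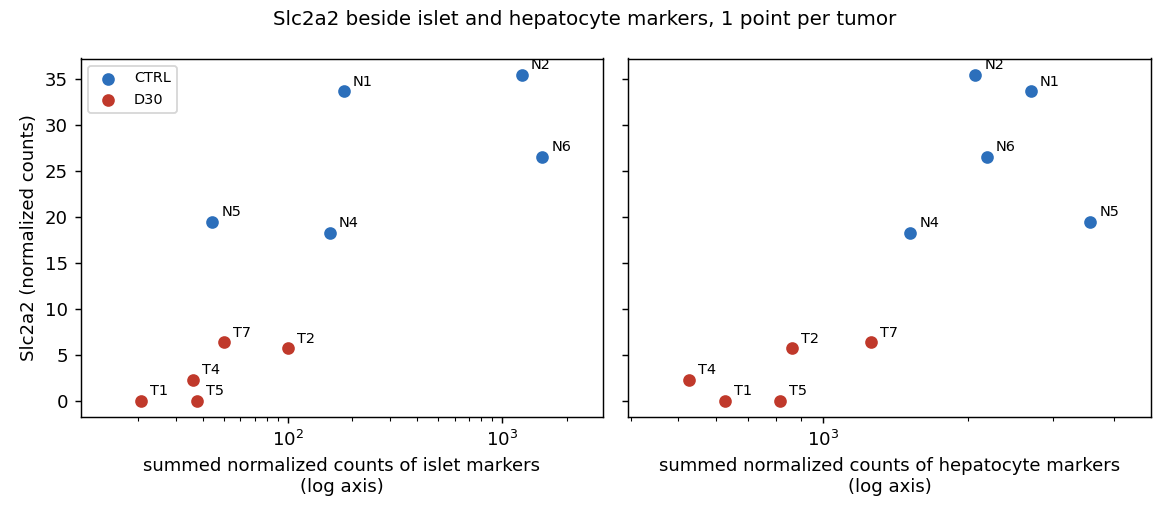
Slc2a2 beside the markers of islet cells and hepatocytes. Each point is 1 tumor, CTRL in blue and D30 in red, with the normalized counts of Slc2a2 on the vertical axis and the summed normalized counts of islet markers (left) or hepatocyte markers (right) on the horizontal log axis. T2 lies to the right of N5 on the islet axis (99.7 against 44.3) and below it on the Slc2a2 axis (5.73 against 19.5). The islet sum of T2 lies in Chga and Mafa, with 0 of Ins1, Ins2, Gcg and Iapp. Ttr dominates the hepatocyte sum.

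The genes most like Slc2a2 by the same measure, over 12215 genes, were the non-coding Mir99ahg (r = 0.963), Elp6, a subunit of the Elongator complex (r = 0.959), and Ildr2, a membrane protein of the immunoglobulin family (r = 0.917). None of them passed the test, with log2 fold changes of -0.70 (limma adjusted p = 0.456), -0.02 (0.965) and -1.38 (0.0803). With 0 to 49 reads of Slc2a2 per tumor, counting error makes up much of the deviations that r compares.

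The sequences before the start sites of Slc2a1 and Slc2a2 are shown, since the former was the most abundant member and the latter the one that passed the test. RefSeq (GRCm38.p6) held promoter windows, from 250 bases before to 50 bases after the start, for 8 of the members, and they were searched on both strands for the E-box CACGTG, the core ACGTG or GCGTG known from hypoxia response elements, and the GC box GGGCGG. The E-box contains ACGTG, so that it counts under both. Of 32851 such windows, 7.15% held the E-box, 43.8% the hypoxia core and 35.7% the GC box. The stretch of Slc2a1 is chr4:119108495-119108710 and that of Slc2a2 is chr3:28697653-28697902, both on the plus strand and 5′ to 3′, with matches on either strand in capitals.

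Slc2a1: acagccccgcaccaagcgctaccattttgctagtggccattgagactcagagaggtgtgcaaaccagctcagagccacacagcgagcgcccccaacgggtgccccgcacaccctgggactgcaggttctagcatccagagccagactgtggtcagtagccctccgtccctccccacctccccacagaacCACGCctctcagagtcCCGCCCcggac

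Slc2a2: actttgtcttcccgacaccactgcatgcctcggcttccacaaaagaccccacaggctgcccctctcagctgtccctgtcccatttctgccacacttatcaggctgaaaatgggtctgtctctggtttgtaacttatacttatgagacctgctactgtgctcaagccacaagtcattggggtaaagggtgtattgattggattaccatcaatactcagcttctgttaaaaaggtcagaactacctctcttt

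The Slc2a1 stretch, 63.9% G or C over 216 bases, held 1 hypoxia core and 1 GC box, both as the reverse complement. Its whole window held 2 of each. The Slc2a2 stretch, 47.2% G or C over 250 bases, held no match to any of these letters. Of the other windows, Slc2a6 held 4 hypoxia cores and 2 GC boxes, and Slc2a13 held 3 GC boxes and no hypoxia core. That of Slc5a1 held 3 hypoxia cores and was the window with an E-box. A match of letters is a description and does not show that a factor binds there.

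The transporters that act mainly inside the cell or on other substrates did not pass the test. Slc2a6 (chromosome 2, 27021363 to 27027998, minus strand) encodes GLUT6, found in lysosomes of macrophages. It had 42.5 to 97.8 normalized counts in CTRL and 55.5 to 221 in D30 tumors, and 4 of the D30 tumors, all but T4, exceeded each CTRL tumor. Its log2 fold change was 0.75 (95% interval -0.05 to 1.56, limma adjusted p = 0.323). Summed macrophage markers went the other way, at 19004 to 31785 in CTRL and 9922 to 27313 in D30 tumors, and 2 of those 10 markers, Csf1r and Cd163, fell. Slc2a8 (chromosome 2, 32972990 to 32982083, minus strand) encodes GLUT8, an intracellular transporter. It had 472, 954, 898, 999 and 1009 normalized counts in N1, N2, N4, N5 and N6 and 801, 837, 271, 1020 and 860 in T1, T2, T4, T5 and T7. T4 and N1 were low and the other 8 tumors lay between 801 and 1020. The log2 fold change was -0.27 (95% interval -1.03 to 0.48, adjusted p = 0.742) and turned to 0.07 without T4.

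Slc2a10 (chromosome 2, 165503787 to 165519917, plus strand) encodes GLUT10, whose loss causes arterial tortuosity. It had 43.1 to 71.0 normalized counts in CTRL and 15.04 to 91.6 in D30 tumors, with T4 lowest and T5 highest. The log2 fold change was -0.37 (95% interval -1.33 to 0.58, limma adjusted p = 0.717). It was -0.02 without T4 and -0.65 without T5. Slc2a12 (chromosome 10, 22645011 to 22704285, plus strand) encodes GLUT12. It had 6.85 to 24.2 normalized counts in CTRL and 0 to 18.5 in D30 tumors, from 84 and 32 reads in all. Its log2 fold change was -1.52 (95% interval -3.07 to 0.03, adjusted p = 0.295), and the groups overlapped.

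Slc2a13 (chromosome 15, 91267696 to 91573261, minus strand) encodes HMIT, a transporter of myo-inositol and protons. CTRL tumors had 70.5, 53.5, 44.8, 43.4 and 43.6 normalized counts in N1, N2, N4, N5 and N6. D30 tumors had 31.9, 18.3, 25.4, 29.8 and 18.1 in T1, T2, T4, T5 and T7, so that the groups did not overlap. The mean was 51.2 ± 11.6 in CTRL and 24.7 ± 6.36 in D30 tumors (SD, n = 5). The log2 fold change was -1.03 (95% interval -1.76 to -0.30) with an adjusted p of 0.132 (limma). It passed with DESeq2 (-1.05, adjusted p = 0.0208) and with T4 and T5 left out (-1.16, 0.0429) but not with edgeR (0.0916).

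Slc5a1 (chromosome 5, 33104219 to 33162870, plus strand) encodes SGLT1, the sodium-coupled transporter of intestinal glucose absorption. It had 1, 8, 2, 0 and 12 reads in the CTRL tumors N1, N2, N4, N5 and N6 and 0, 1, 4, 0 and 0 in the D30 tumors T1, T2, T4, T5 and T7. A difference was not detectable at this depth (log2 fold change -1.04, 95% interval -2.64 to 0.56, limma adjusted p = 0.510). Reads of Slc2a1 and Slc2a12 are less certain than those of the others, since exons of Gm12868 and Tbpl1 overlap theirs on the opposite strand and it is not stated whether counting used the strand.

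Of 18 other sugar transporter genes, 15 were tested, with Slc5a3 higher and Slc5a9 lower in D30 tumors. Slc5a3, the sodium-coupled transporter of myo-inositol SMIT1, had 507 to 808 normalized counts in CTRL and 1034 to 1744 in D30 tumors and rose by 1.07 on the log2 scale (limma adjusted p = 0.0149). Slc5a9, the mannose and glucose cotransporter SGLT4, had 22.1 to 69.4 normalized counts in CTRL and 0 to 14.9 in D30 tumors and fell by 3.08 (adjusted p = 0.0272). Both lost their call when 1 of several CTRL tumors was left out, Slc5a3 without N2 (adjusted p = 0.0603) or N6 (0.0543), and Slc5a9 without N2 (0.0955), N4 (0.0544), N5 (0.0762) or N6 (0.0835). The median log2 fold change of the 15 was 0.12.

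Of 31 genes for the trafficking of glucose transporters, 1 was called, and the median log2 fold change was 0.07. This was Txnip, a glucose-induced arrestin that promotes the removal of GLUT1 from the cell surface. It had 11722, 6308, 9014, 8294 and 8492 normalized counts in N1, N2, N4, N5 and N6 and 14448, 25311, 45443, 43387 and 21242 in T1, T2, T4, T5 and T7. Each D30 tumor exceeded each CTRL tumor, and Txnip rose by 1.67 on the log2 scale (limma adjusted p = 0.0123).

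Of 12 genes of hexose phosphorylation and dephosphorylation, 10 had higher estimates, with a median of 0.72, and 1 passed. Khk, the ketohexokinase that phosphorylates fructose, had 432 to 784 normalized counts in CTRL and 1082 to 3648 in D30 tumors and rose by 1.68 (limma adjusted p = 0.00898). DESeq2 called 5 of the 12, with 8.17% of all genes called, and limma called 4 with T4 and T5 left out, with 9.97% called. None of the 20 transcription factors known to act on transporter genes passed (median -0.19), while 1 had an unadjusted p under 0.05. DESeq2, library size scaling and the fit without T4 each called 1 of them, and the fit without T4 and T5 called 4. The smallest p was that of Mef2c, a factor for Slc2a4 in muscle, with 175 to 276 normalized counts in CTRL and 53.8 to 148 in D30 tumors and a log2 fold change of -1.06 (adjusted p = 0.0861).

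Markers of other cells of the tumor were also counted. The 10 tumor epithelium markers had 9 higher estimates and no call, with sums between 269268 and 400284 in CTRL and 412726 to 625181 in D30 tumors, without overlap, and N4 was the highest CTRL tumor here as for Slc2a1. Of 10 endothelial markers 9 had lower estimates and 1 a higher one, and Cdh5 fell. Their sums lay between 13556 and 20586 in CTRL and between 7523 and 10963 in D30 tumors. These sums lean on Cdh5, which alone had 7205 to 14529 in CTRL and 2480 to 6142 in D30 tumors. All 10 fibroblast and all 10 T cell markers had lower estimates with no call, with fibroblast sums between 80408 and 142607 in CTRL and 32313 to 108203 in D30 tumors, and T cell sums of 394 to 767 and 263 to 385. Of 8 erythroid markers 7 were tested and none was called. Of 9 adipocyte and 8 tested skeletal muscle markers none was called either. The part of these markers in the transporter counts was not tested.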

How the data were processed

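Per the labels and the study's methods, RNA of 10 tumors was made into strand-specific libraries, read in pairs of 150 bases, trimmed with Trim Galore and aligned with STAR 2.7.0e. The labels name GRCm39 and the methods hg38, the methods list RSEM among the software without stating its role, and the annotation release and counting settings are not given in the sources used here. The deposited values are a normalized signal, of the form of DESeq2 normalized counts. After division by the step of each column, 100% of the values were whole reads (tolerance 0.01). Columns were grouped by letter, N as normoglycemic and T as the other group. Names and positions came from GENCODE M21 (GRCm38), which named 94.1% of the 55359 genes.

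limma 3.58.1 (R 4.3.3) with a mean-variance trend was fitted to log2(normalized count + 1) over genes with a mean of at least 1, with Benjamini-Hochberg adjustment. The recovered reads were given to edgeR 4.0.16 (quasi-likelihood) and DESeq2 1.42.0, and the fits were tested on simulated data. The simulated counts had the same dispersion for every gene and no outlying tumors, so they do not cover values like those of T5. Other pseudocounts, filters and scalings and fits without single tumors were alternatives. Intervals cover 95%, and a count of 0 allows up to 3 reads, for counting error only. The fit without T4 and T5 and that of DESeq2 without its outlier rule were added after seeing the data. The members and lists were chosen with earlier results of these data known. Besides the members, the text names from each list other than markers the called genes (at most 6 with the smallest p, or the gene with the smallest p), and the 3 genes most like Slc2a1 and Slc2a2. Marker lists are given by counts. Marker genes named singly, and the Y-linked genes, were chosen after their values were seen. The call of 1 intestinal marker and part of the genotype of the cell line are not reported here.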

Additional observations from a re-analysis of the deposited data

Results flagged for a closer look

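In 20 groups of 5 tumors, 4 held a tumor whose gap to its nearest neighbour, divided by the range of the group, exceeded the critical value of 0.71. For normally distributed values, chance gives about 1 such group in 20. The rule was applied to normalized counts without a log scale, and whether that rate holds for them was not tested. The CTRL tumor N4 had 6206 normalized counts of Slc2a1 where the next CTRL tumor had 3045. The D30 tumor T5 had 30003 normalized counts of Slc2a1 where the next had 7325. The CTRL tumor N1 had 472 normalized counts of Slc2a8 where the next lowest had 898. The D30 tumor T4 had 4.63 normalized counts of Slc5a1, from 4 reads, where the next had 1.15.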

How the results depend on the processing

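The count of called members was 1 (Slc2a2) in the fit as reported and under other pseudocounts (0.5 and 5), no filter, a filter at a mean of 10, library size scaling, TMM scaling and edgeR. It was 2 with DESeq2, 3 with DESeq2 without its outlier rule and 3 with T4 and T5 left out, and ranged from 0 to 3 with 1 tumor left out (0 without N2, 2 without N4 or T5, 3 without T4, and 1 in the other fits). Library size scaling moved the median of all genes to -0.27, with 240 genes called higher and 624 lower, against 344 and 334 in the fit as reported.

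No paired analysis was possible because the column numbers are not the replicate numbers of the labels. The study's methods also name no pairing of CTRL with D30 mice. They state that mice were randomized to treatment after their tumors had been seen by imaging. A replicate number shared by the groups is therefore not known to mark a matched pair.

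Slc2a4 changed sign with a pseudocount of 5 (0.024), with edgeR (0.18), with DESeq2 with and without its outlier rule (0.17) and without T4 and T5 (0.97), and ranged from -0.66 to 0.67 with 1 tumor left out. Slc2a8 ranged from -0.48 to 0.067 with 1 tumor left out. The cause was not tested. Slc2a2 ranged from -3.73 (pseudocount 0.5) to -2.06 (pseudocount 5), since low counts depend on that choice. Below about 10 reads per tumor, as for Slc5a1, depth limits what can be told.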
